A study of Mus musculus with 33 samples.

Results

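Focal adhesions are the places where a fibroblast holds on to the matrix around it, and the genes described here encode their receptors, the proteins that link those receptors to actin, and the regulators of that link. The set was listed by gene function, with earlier results of these data known, and holds 38 of 21631 annotated protein-coding genes (autosomes and the X chromosome). Binding of the heat shock factor HSF1 at these genes was read from chromatin immunoprecipitation sequencing (ChIP-seq) lists of peaks, that is, places with more sequenced tags than the background. The cells were mouse embryonic fibroblasts (MEFs) of a 129Sv.BALB/c background, either wild type or HSF1-/-, either unstressed (before heat shock) or heat shocked for 12 or for 60 min. Antibodies labelled CS (from Cell Signaling) and MM (a gift of the Morimoto lab) were used in both genotypes, and an antibody against SRF in wild type cells. The labels name no target for CS and MM, and the file headers name an Hsf1 experiment, so both are read here as HSF1 antibodies.

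These 15 combinations of genotype, antibody and time each had 1 peak list, out of 33 samples in the series. Wild type CS and MM lists were each called on 2 merged replicates per the file headers, so there was no replicate error and no test between times or genotypes. The labels do not say how many animals or lines the cells came from, nor the temperature of the heat shock. Peak lists hold no RNA values, so neither the fibroblast identity nor the loss of HSF1 could be checked from them. Wild type CS and MM libraries kept 14.0 to 26.3 M tags (M for mega), knockout libraries 5.18 to 15.6 M and SRF libraries only 0.751 to 1.55 M.

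HSF1 is the factor that switches on chaperone genes when proteins unfold, by binding heat shock elements made of repeated GAA units in alternating direction. Integrins are the receptors of focal adhesions: their outer part grips matrix proteins and their inner tail recruits talin, kindlin and vinculin, which lead to actin filaments. SRF is known for switching on many genes of this system together with cofactors that sense free actin, which is why its peaks are given beside those of HSF1.

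A region was counted as shared when a CS and an MM peak of the same genotype and time overlapped by at least 1 bp, and its summit was halfway between its CS and MM summits (those of the highest peaks where an antibody had several). A gene had a region when that summit lay in the annotated gene or within 10 kb of it. Regions were divided into those at a gene end (summit within 1 kb of either annotated end), those inside the gene and farther from both ends, and those in the flank outside. The gene table lists no exons, so introns and exons were not separated inside genes. A peak's tag count and fold enrichment over background are the authors' own values within 1 list and are not compared between lists or times. To place a region within its time, its CS and MM fold ranks were averaged and given as a percent of all shared regions of that time, with low values at the strong end.

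No CS or MM peak lay in or within 10 kb of any of the 38 genes in wild type cells before heat shock, when these lists held 180 CS and 449 MM peaks in all and 0.712% and 2.03% of all protein-coding genes had one. Fragment lengths estimated by MACS were 45 and 40 bp in these libraries, close to the tag length of 36 bp, and 107 to 161 bp in wild type CS and MM libraries after heat shock. The part of this in the 0 was not tested. At 12 min 8 genes had a shared region: Itgb5, Tns3, Parva, Lims1, Pxn, Lpp, Csrp1 and Actn4. At 60 min the same 8 genes had one, and Tns1, Bcar1, Lasp1, Palld and Enah were added, which made 13. The share of the set was thus 0% before heat shock (exact 95% interval 0% to 9.25%), 21.1% at 12 min (9.55% to 37.3%) and 34.2% at 60 min (19.6% to 51.4%). Over all 21631 protein-coding genes it was 0.532%, 5.33% and 11.2% at the 3 times. The intervals cover counting error only.

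Gene length matters for such a count, since a long gene has more room for a region. The 38 genes had a median length of 70.3 kb (from 4.58 kb for Trip6 to 599 kb for Lpp), against 17.3 kb over all protein-coding genes. For each of them the share was therefore also taken over all other protein-coding genes whose length was within a factor of 1.5 of its own. Averaged over the set, 0.702% of such genes had a shared region in unstressed cells, 7.71% after 12 min and 17.1% after 60 min. Both shares of the adhesion genes after heat shock lay above these. Genes are not replicates and the choice of the set was not independent of these data, so this is a description without a test.

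**Figure D1:**
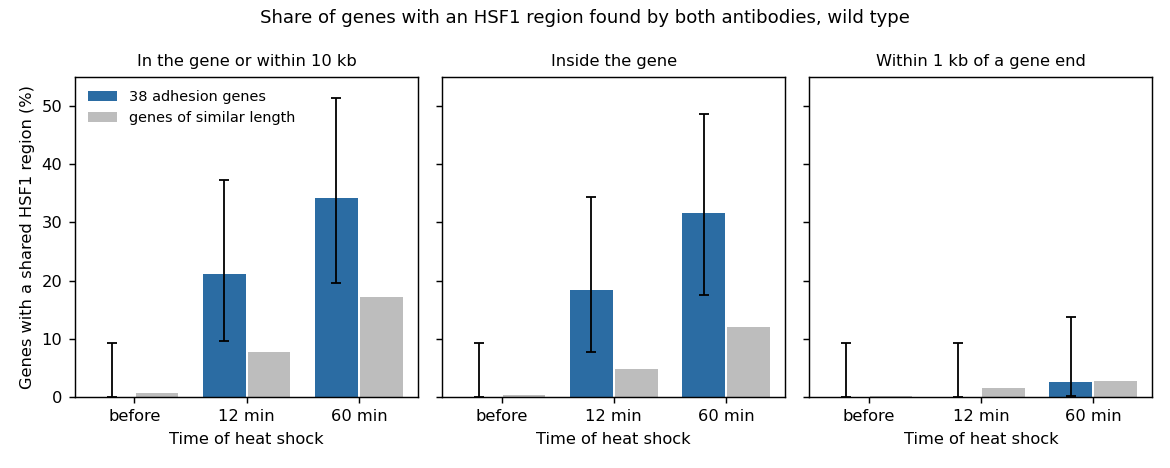
Bars give the share of genes (%) with an HSF1 region found by both antibodies in wild type cells, before heat shock and at 12 and 60 min, for the 38 adhesion genes (blue, with exact 95% intervals) and for protein-coding genes of similar length (grey). At 60 min the blue bar stands at 34.2% against 17.1% for any position and at 31.6% against 12.0% inside genes, while at gene ends both bars are near 2.6%.

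The higher share was found inside genes and not at their ends. Inside the gene, 7 of 38 members had a region at 12 min (18.4%, interval 7.74% to 34.3%) and 12 at 60 min (31.6%, 17.5% to 48.7%), against 4.85% and 12.0% of genes of similar length, and 2.22% and 5.5% of all protein-coding genes (0.166% before heat shock). At a gene end no member had a region at 12 min, against 1.44% of genes of similar length and 1.53% of all. At 60 min Csrp1 alone did (2.63%, 0.0666% to 13.8%), against 2.64% of genes of similar length and 2.58% of all, so at their ends the adhesion genes were at the background. In flanks, 1 member had a region at 12 min (Lims1, 2.63%) and 3 at 60 min (Tns3, Lims1 and Actn4, 7.89%), against 1.62% and 3.63% of genes of similar length. Over all protein-coding genes the flank share was 0.171%, 1.72% and 3.86% at the 3 times. By regions, 21 of the 26 at 60 min lay inside a member (80.8%), 2 at an end and 3 in a flank. Over all protein-coding genes 51.4% of region and gene pairs were inside, 19% at an end and 29.6% in a flank.

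Several members held more than 1 region. At 12 min these were Lims1 and Actn4 (5.26%, against 0.918% of genes of similar length and 0.421% of all protein-coding genes). At 60 min 7 of 38 members had 2 or more (18.4%): Tns1, Tns3, Parva, Pxn, Lpp, Csrp1 and Actn4. The share was 3.98% among genes of similar length and 1.81% among all protein-coding genes. Counted by length of DNA, the set held 4.95 shared regions per megabase of gene and flanks at 60 min, against 1.99 over the other protein-coding genes, and 2.10 against 0.848 at 12 min.

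Length also separated the members among themselves. None of the 8 members up to 30 kb had a region at any time, 3 of 8 between 30 and 60 kb had one at 60 min, 4 of 12 between 60 and 120 kb, and 6 of 10 above 120 kb. The shares of other protein-coding genes in these classes were 7.88%, 12.2%, 17.4% and 26.5%. The median length was 120 kb for the 13 members with a region at 60 min and 47.9 kb for the others. Some long members had no region: Tln2 (417 kb), Diaph3 (486 kb), Ptk2 (219 kb) and Pdlim5 (156 kb) had none shared by both antibodies, while 29.5%, 30.1%, 26.3% and 24.1% of genes of their length did at 60 min.

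**Figure D2:**
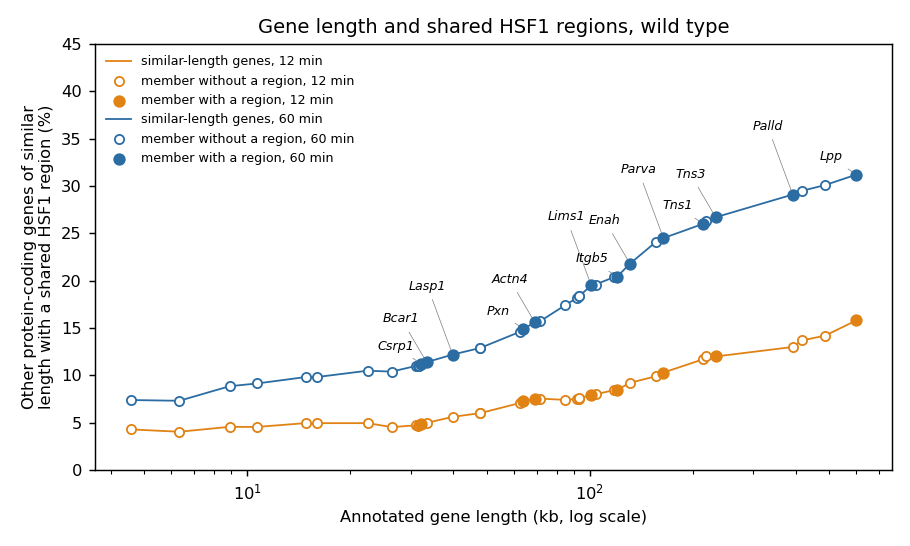
Each point is 1 of the 38 genes at its annotated length (kb, log scale), placed at the share (%) of other protein-coding genes of similar length with a shared HSF1 region at 12 min (orange) or 60 min (blue); filled points are members with a region of their own. The line rises from 7.40% at the length of Trip6 to 31.2% at that of Lpp at 60 min, and the filled points begin at 32.2 kb (Csrp1).

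Among the 5 integrin receptor genes, only Itgb5 had a shared region. Itgb5 encodes integrin beta 5, which pairs with the alpha v chain to bind vitronectin. Its region lay 22.5 kb inside the gene from the nearer end (mm10, chromosome 16, 33926267 to 33927308 at 60 min). It held 69 CS and 29 MM tags at 12 min and 205 CS and 121 MM tags at 60 min, and no peak before heat shock. The MM peak at 12 min had a deposited false discovery rate of 21.3%, so Itgb5 has no 12 min region at a limit of 5%. The fold at 60 min was 69.5 for CS and 48.0 for MM, and its mean rank was at 19.3% of the list. The 2 integrin genes Itgav and Itgb3, whose products form the classical vitronectin receptor, had a CS peak without an MM peak inside the gene at 60 min, of 30 and 42 tags. Itgb1 and Itga5, which encode the fibronectin receptor, had no wild type peak of either antibody.

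The 12 linkers and adaptors between integrins and actin held the regions of the set with the best fold ranks at 60 min. Tns3 encodes tensin 3, a protein that ties integrin tails to actin. Its main region (chromosome 11, 8468076 to 8470272 at 60 min), 37.8 kb inside the gene, had 105 CS and 62 MM tags at 12 min. At 60 min it had 448 CS and 299 MM tags, the highest counts in the set, with a fold of 108 for CS and 78.3 for MM. Its mean rank was at 7.99% of the 3455 shared regions of that time. Tns3 gained 3 further regions at 60 min: 1 of 54 CS tags beside the main one, 1 of 116 CS tags 84.9 kb inside, and 1 of 41 CS tags 4.57 kb outside the gene. Tns1, its relative tensin 1, had no shared region at 12 min and 2 at 60 min. The first had 142 CS and 97 MM tags, with a fold of 46.0 and 45.6, and lay 45 kb from the nearer end, and the second had 40 CS and 34 MM tags, 77.9 kb inside.

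Parva, Lims1 and Ilk encode alpha-parvin, PINCH1 and integrin-linked kinase, which form 1 complex at the integrin tail. Parva had a region 26.4 kb inside the gene at 12 min with 146 CS and 79 MM tags (chromosome 7, 112453524 to 112454736 at 60 min, then with 179 CS and 99 MM tags). A second Parva region appeared at 60 min, 71.9 kb inside, with 98 CS and 96 MM tags. At 60 min the first had a fold of 107 for CS and 74.8 for MM and the second 77.9 and 107, which placed them at 8.47% and 9.67% of the list. The summit of the first lay 2708 bp from an end of the noncoding gene Gm45998, a long noncoding RNA.

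Lims1 was the only member whose region summits all lay outside the gene. At 12 min 2 regions stood 1.15 and 2.25 kb before its lower-numbered end, with 95 CS and 20 MM tags and with 61 CS and 22 MM tags. The CS summit of the nearer region, taken alone, lay 886 bp from that end. The MM peaks of both regions had false discovery rates of 10.4% and above, so Lims1 has no 12 min region at a limit of 5%. At 60 min both places were covered by 1 region of 4140 bp that reached across that end (chromosome 10, 58320585 to 58324724), with 361 CS and 47 MM tags and a fold of 34.2 and 15.5. Ilk, 6.34 kb long, had no peak in any of the 15 lists.

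Pxn encodes paxillin, a scaffold that gathers signalling proteins at the adhesion. Its region at 20.9 kb from the nearer end was present at 12 min (63 CS and 31 MM tags) and 60 min (206 CS and 124 MM tags with a fold of 36.9 and 35.6, chromosome 5, 115534020 to 115536336). A second, weaker region 8.53 kb inside had 46 CS and 27 MM tags at 60 min. The 12 min region overlapped a knockout peak of the same time, so Pxn drops out of the 12 min count when such regions are left out. Talin and kindlin, the direct activators of integrins, had no shared region: Tln1 had no wild type peak, Tln2 had a CS peak of 43 tags at 12 min and 3 of 38 to 55 tags at 60 min, and Fermt2 (kindlin 2) 1 CS peak of 58 tags at 60 min, all inside the genes. Vcl, which encodes vinculin, Sorbs3 (vinexin) and Tgfb1i1 (Hic-5, a paxillin relative) had no wild type peak.

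Of the 3 genes for kinases and their scaffold, Bcar1 had a region and Ptk2 and Src had none. Bcar1 encodes p130Cas, which the kinases FAK (Ptk2) and Src phosphorylate when an adhesion is pulled. The Bcar1 region appeared at 60 min with 137 CS and 120 MM tags and a fold of 36.9 and 34.2 (chromosome 8, 111732484 to 111734322). It lay 10.2 kb from the nearer end of the gene but 1465 bp from another annotated Bcar1 start inside the gene, which the division by gene ends does not count.

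Among the 7 LIM domain proteins, which bind stretched or bundled actin and adhesion scaffolds, Lpp, Csrp1 and Lasp1 had regions. Lpp, the longest member at 599 kb, had 1 region at 12 min, 34.5 kb inside (144 CS and 90 MM tags). At 60 min that region had 102 CS and 37 MM tags with a fold of 40.7 and 25.2, and 3 more were found deep in the gene with 34, 61 and 77 CS tags. The first of these, 236 kb from the nearer end, stood near the foot of the list at 92.7%. Lasp1, which encodes an actin-binding adaptor, had an MM peak alone at 12 min (34 tags). At 60 min it had a region of 212 CS and 97 MM tags with a fold of 56.8 and 42.8, 8.29 kb inside the gene (chromosome 11, 97806675 to 97808521). Zyx, Trip6 and Pdlim5, which encode zyxin, its relative TRIP6 and a PDZ and LIM protein, had no wild type peak, and Pdlim7 had 1 MM peak of 25 tags, 4.01 kb outside the gene.

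Csrp1 encodes a cysteine and glycine rich LIM protein of actin bundles. It was the only member with region summits within 1 kb of its ends, and is described for that reason, chosen after its values were seen. At 12 min it had a region 8.86 kb inside with 77 CS and 53 MM tags, and at 60 min 3 regions. Those were the same internal site with 63 CS and 30 MM tags, 1 whose summit lay 238 bp before the annotated start with 38 CS and 17 MM tags, and 1 whose summit lay 75 bp beyond the far end with 38 CS and 20 MM tags. All 3 were in the weaker part of the 60 min list, at 82.4% to 90.5%. Neither end region had a false discovery rate of 5% or less for both peaks (6.79% for MM at the start, 7.44% for CS and 6.28% for MM at the far end), so at that limit no member has a region at an end.

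Promoter sequence was looked at because SRF is known for acting near gene starts and because Csrp1 had an HSF1 region there. RefSeq promoter windows (GRCm38.p6, the primary assembly of mm10) were matched by symbol for 29 of the 38 genes, with 39 annotated starts, and the 250 bases before each start were searched. The motifs were a pair of heat shock element units, spelled GAANNTTC or TTCNNGAA, which can overlap each other, and the CArG box, the SRF motif of 10 bases; each reads the same on both strands. A pair of heat shock units was found before 4 of 39 member starts (10.3%: Itga5, Itgb5, Vcl and Bcar1), against 12.8% of the 32851 windows in the table. A 60 min shared region overlapped 676 whole promoter windows of any gene, not always in the searched bases. Of these windows, 23.7% held such a pair in the 250 bases before the start. A CArG box was found before 2 (5.13%: Vcl and Fermt2), against 1.47% of all windows. A match describes letters and is not a binding site. The sequence of the regions inside the members was not analysed here.

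Windows of 3 members are printed, each chosen after the search: Csrp1 for the region at its start, Vcl as the member with matches of both motifs, and Itgb5 as a member with a match and a region elsewhere. Each is given 5′ to 3′ on the plus strand of GRCm38.p6, with motif matches in capitals. The Csrp1 window lies under the 60 min region at its start and holds no match of either motif. The Vcl window has a CArG box starting 227 bases before the start and a heat shock pair starting at 200, and no peak of any list lay over it; its last 15 bases before the start are left out, as they lie in the annotated gene. The Itgb5 window has a heat shock pair starting 155 bases before the start, while the Itgb5 region stood 97147 bp away from that start at 12 min.
Csrp1 (chr1:135719813-135720062): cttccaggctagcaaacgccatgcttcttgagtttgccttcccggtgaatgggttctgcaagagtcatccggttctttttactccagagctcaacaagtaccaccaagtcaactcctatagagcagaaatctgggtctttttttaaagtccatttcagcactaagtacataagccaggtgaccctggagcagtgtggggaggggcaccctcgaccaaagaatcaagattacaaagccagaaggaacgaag
Vcl (chr14:20929148-20929382): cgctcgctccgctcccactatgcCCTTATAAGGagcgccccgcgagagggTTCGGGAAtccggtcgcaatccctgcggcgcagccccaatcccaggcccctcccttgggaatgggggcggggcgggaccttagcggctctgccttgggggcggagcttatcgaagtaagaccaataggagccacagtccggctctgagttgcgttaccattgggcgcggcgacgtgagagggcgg
Itgb5 (chr16:33829415-33829664): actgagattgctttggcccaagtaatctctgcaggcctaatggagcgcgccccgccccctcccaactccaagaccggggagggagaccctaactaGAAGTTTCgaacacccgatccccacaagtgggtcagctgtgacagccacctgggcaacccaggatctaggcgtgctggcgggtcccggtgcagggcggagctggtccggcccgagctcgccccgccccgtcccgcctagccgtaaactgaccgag

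Among actin crosslinkers, Actn4 (alpha-actinin 4) had 3 regions inside the gene at 12 min, with 170, 72 and 66 CS tags and 81, 39 and 41 MM tags. At 60 min the first 2 had 172 and 52 CS tags and 65 and 34 MM tags, and the first a fold of 42.9 for CS and 19.5 for MM. The third, 10.2 kb inside, had no shared region at 60 min and was the only 12 min region of the set for which this was so. A 60 min region of 30 CS tags in the flank, 3.19 kb from Actn4, had deposited false discovery rates of 24.5% and 16.4% and was also within reach of the neighbour Eif3k. The strongest Actn4 site (chromosome 7, 28930490 to 28931897 at 60 min) lay 938 bp from an end of the noncoding gene Gm38978 and overlapped a knockout peak of the same time. Palld, which encodes the stress fibre protein palladin, had CS and MM peaks at separate places at 12 min. At 60 min it had 1 region of 75 CS and 31 MM tags with a fold of 25.6 and 17.8, 2841 bp from another annotated start inside the gene. Actn1, the gene of alpha-actinin 1, had 1 CS peak of 50 tags inside the gene at 60 min, and Flna, the filamin A gene, had no wild type peak.

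The 7 genes of actin assembly and its regulators held 1 shared region among them. Only Enah, which encodes the filament elongation factor Mena, had a shared region, at 60 min and with 38 CS and 21 MM tags and a fold of 26.5 and 11.8. The false discovery rates were 8.12% for CS and 20.9% for MM, so at a limit of 5% Enah has no region and none of these 7 genes does. Its summit was 1184 bp inside the gene from the upper end, just outside the limit for a gene end. Rhoa, the small GTPase that drives stress fibre assembly, had an MM peak of 29 tags 360 bp from its nearer end at 60 min and no CS peak. Diaph1, a formin activated by RhoA, had a CS peak of 33 tags at 12 min and an MM peak of 17 tags at 60 min at the same end (31 and 6 bp from it), but never both at once. Vasp, Diaph3, Rock1 and Rock2 had no wild type peak.

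**Figure D3:**
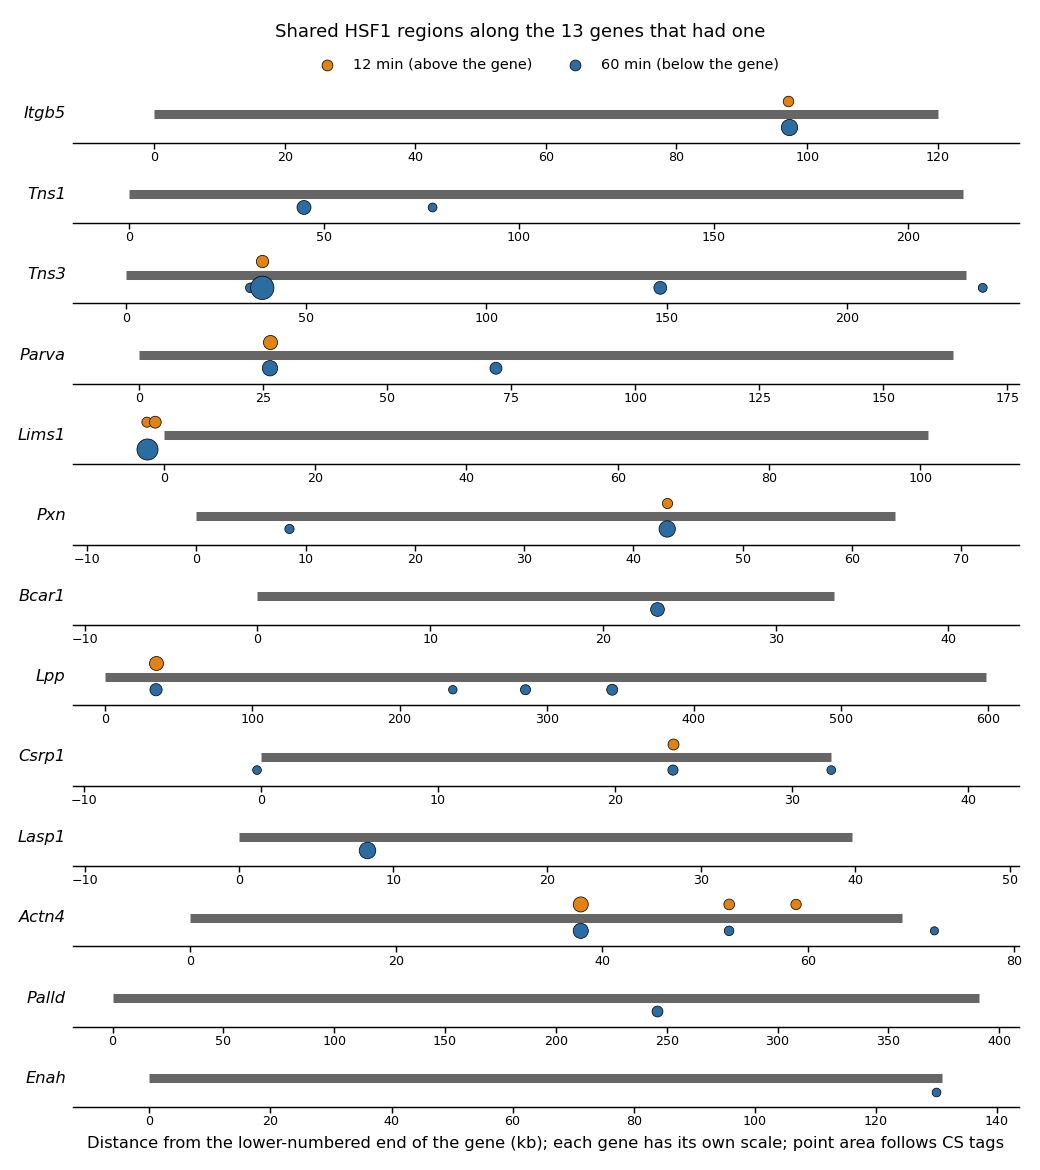
Grey bars are the 13 genes with a shared region, each on its own scale in kb from its lower-numbered end; circles mark region summits at 12 min (orange, above) and 60 min (blue, below), with an area that follows the CS tags. Most circles lie well inside the bars, the large blue circle of Tns3 has 448 CS tags, and those of Lims1 lie before the gene.

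Across the set, 10 of the 11 regions of 12 min overlapped a 60 min region, and 17 of the 26 regions of 60 min were at places without one at 12 min. The list of all shared regions also grew, from 1412 at 12 min to 3455 at 60 min. Overlaps between times were not counted over all regions, so no background stands beside these counts. By mean fold rank the members' regions stood at a median of 58.7% of the list at 12 min and 64.7% at 60 min, in its weaker part. CS tags ran from 30 to 448 at 60 min with a median of 76, against 86 over all 3455 regions, and MM tags from 17 to 299 with a median of 35, against 42. The median CS fold was 32.7 against 36.5 for all regions, and the median MM fold 19.1 against 24.2. At 12 min the median CS tag count was 77, against 79 over all 1412 regions, and the median MM tag count 41 against 45. The median CS fold at 12 min was 31.1 against 27.9, and the median MM fold 16.1 against 17.9. A deposited false discovery rate of 5% or less for both peaks was reached by 8 of the 11 regions at 12 min and 20 of 26 at 60 min. How many of all shared regions reached it was not counted. For all 37 of these regions the member was also the nearest protein-coding gene.

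Altogether 21 of the 38 genes had a CS or MM peak in wild type cells at some time, and 8 of these had peaks that never formed a shared region: Itgav, Itgb3, Tln2, Fermt2, Actn1, Diaph1, Pdlim7 and Rhoa. By CS alone 28.9% of the set had a peak at 12 min and 47.4% at 60 min, against 9.33% and 21.5% of genes of similar length and 6.41% and 13.9% of all. By MM alone the shares were 28.9% and 42.1%, against 10.4% and 22.1% of similar length and 7.23% and 15.4% of all. The remaining 17 genes had no wild type peak in reach. Closest beyond the 10 kb limit at 60 min were shared regions 14.7 kb from Pdlim7, 22.3 kb from Trip6 and 23.6 kb from Fermt2, while the farthest flank region inside the limit was that of Tns3.

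Cells without HSF1 measure what each antibody finds in its absence. Trip6 was the only member with a region shared by both antibodies in the knockout, 1 of 38 (2.63%, interval 0.0666% to 13.8%) at each of the 3 times. It stood 2.80 to 2.81 kb outside the gene with 11, 13 and 15 CS tags and 10, 6 and 14 MM tags in order of time, and Trip6 had no wild type peak. The nearest protein-coding gene to that place was Slc12a9, and Srrt was also in reach. Among genes of similar length 4.21%, 3.52% and 4.52% had a knockout region, and among all protein-coding genes 2.37%, 2.01% and 2.55%. None of the 13 genes with a wild type shared region had a shared one in the knockout. At the low shares of genes of similar length, 13 genes are too few for this to stand apart from the background. The same count over all genes with a wild type region was not made.

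Counted list by list, knockout peaks were frequent and low. The 6 lists held 114 peaks in or near 32 of the 38 genes, with a median of 4 to 6.5 tags in each list and at most 15, and 4 of them, all at Trip6, had a p of 1e-10 or less. CS peaks were found at 47.4% of the set in unstressed cells, 44.7% after 12 min and 36.8% after 60 min, against 32.9%, 24.4% and 26.7% of genes of similar length and 21.6%, 15.9% and 18.1% of all. MM peaks were found at 26.3%, 42.1% and 21.1%, against 14.7%, 25.5% and 17.1% of similar length and 9.92%, 16.8% and 11.4% of all. The adhesion genes were thus above genes of their length in all 6 knockout lists as well. What part such background has in the wild type share was not tested. Of the wild type regions, 1 of 11 at 12 min (Pxn) and 1 of 26 at 60 min (Actn4) overlapped a knockout peak of the same time. Without such regions the shares were 18.4% and 34.2%, against 7.49% and 16.7% of genes of similar length. Counting an overlap with a knockout list of another time too, there were 2 of 11 regions (Pxn and Actn4) and 3 of 26 (Pxn, Actn4 and Palld). Overlaps with knockout peaks were not counted over all shared regions. Knockout lists were called without a control library and wild type lists against IgG, so the 2 sets of shares are not on 1 scale. Fragment lengths estimated by MACS were 33 to 40 bp in the 6 knockout libraries at all times, close to the tag length of 36 bp. The part of this in the knockout counts was not tested.

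**Figure D4:**
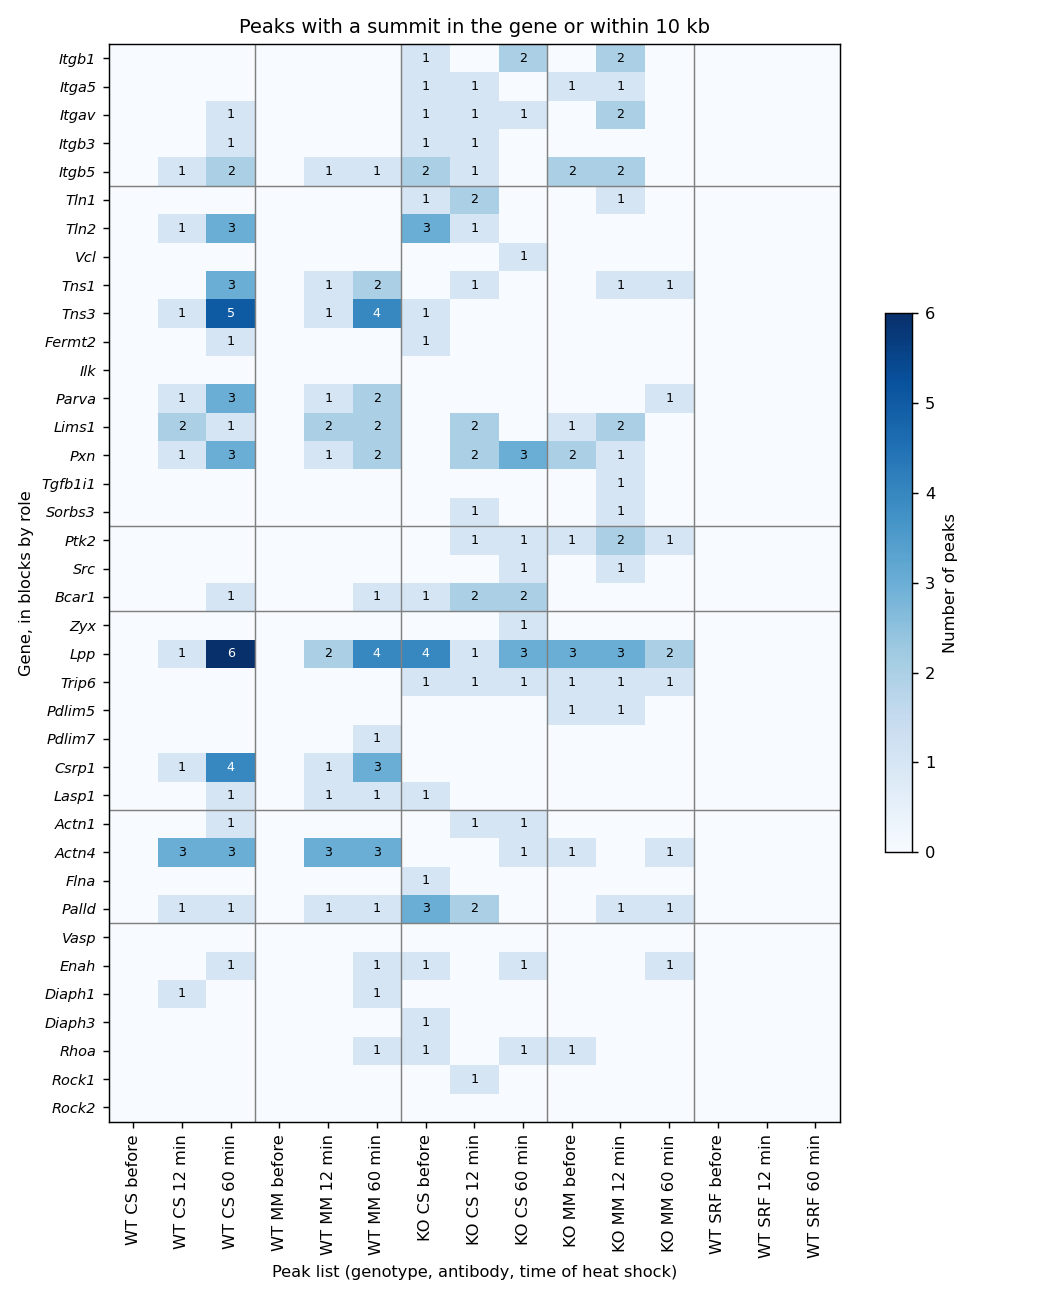
Rows are the 38 genes in blocks by role and columns the 15 peak lists; each number and shade is the count of peaks with a summit in the gene or within 10 kb, and empty cells hold 0. Wild type CS and MM columns are empty before heat shock and fill at 12 and 60 min (up to 6 CS peaks in Lpp), knockout columns are filled thinly at all times, and the 3 SRF columns are empty.

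No SRF peak lay in or within 10 kb of any of the 38 genes at any time, 0 of 38 in each list, which allows a share of up to 9.25% (exact 95% bound). The SRF lists held 63, 66 and 18 peaks on these chromosomes, and 0.194%, 0.254% and 0.0878% of all protein-coding genes had one in reach. The nearest SRF peak to any member stood 105 kb away, near Sorbs3, in both the unstressed and the 12 min list, and 2980 kb away, near Diaph1, at 60 min. SRF peaks were thus not detected at these genes in libraries of 0.751 to 1.55 M tags.

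The wider adhesion pathway was looked at through a list of 95 further genes, with a median length of 53.3 kb. A shared region was found at 1 of 95 before heat shock (1.05%), 14 at 12 min (14.7%, interval 8.30% to 23.5%) and 20 at 60 min (21.1%, 13.4% to 30.6%), against 0.683%, 7.18% and 15.8% of genes of similar length. At 60 min 16 had a region inside the gene (16.8%, interval 9.94% to 25.9%), against 10.4% of genes of similar length. At an end only Ccn1 had one (1.05%, against 2.68%), and it overlapped a knockout peak of the same time. By role, the 20 were 5 of 14 other integrin genes, 4 of 34 adaptors, 4 of 15 LIM genes, 3 of 18 genes of actin assembly and 4 of 14 matrix ligands. Over all protein-coding genes 11.2% had a region at 60 min, and genes of similar length were not taken by role. The best ranked at 60 min was Fhl2, a LIM protein gene, with 278 CS and 102 MM tags 25.4 kb inside the gene. Itga6, which encodes a laminin receptor chain, had 171 CS and 95 MM tags 7.48 kb outside it. Itgb7, mostly known from leukocytes, was the 1 gene of the list with a region before heat shock (38 CS and 26 MM tags). Both of its peaks had a deposited false discovery rate of 100%, and it stood at 93.0% of the 121 unstressed regions. Rarg was also in reach.

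For comparison, 26 actomyosin genes, which are short with a median of 13.3 kb, had a shared region in 26.9% at 12 min and 30.8% at 60 min, against 5.28% and 11% of genes of similar length. At 60 min 4 of the 26 had a region at an end (15.4%: Myl12a, Cald1, Flnc and Wdr1), against 1 of 38 adhesion genes (2.63%), and 4 had one inside. Among genes of the length of the actomyosin genes 2.83% had one at an end and 4.78% inside. At 12 min 6 of the 26 had an SRF peak in reach (23.1%), against 0.278% of genes of similar length and 0 of 38 adhesion genes. All 20 genes of a chaperone list had a region at an end at 12 and 60 min and none inside, and 12 of them had one before heat shock. Of genes of similar length, 0.239%, 1.76% and 2.83% had one at an end at the 3 times. Inside the gene, 0.881% of them had one at 12 min and 2.2% at 60 min, so none of 20 inside is near that background. The lists set beside the members were chosen with earlier results of these data known, so their shares are no independent reference. Differences between lists were not tested.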

How the data were processed

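Deposited peak lists of 15 samples were used, and the other 18 samples were not analysed here. Per the file headers, the authors made the wild type CS and MM lists with MACS 1.4.2 (p cutoff 1e-04) and compared each with the IgG library of its time, a control that both antibodies share. Per the same headers, MACS 1.4.2 was run on the knockout libraries with no control, and MACS2 2.0.9 on the SRF libraries with IgG as control. The labels give mm10 as the build. The aligner and its settings are not given in the sources used here. In the MACS 1.4.2 lists, per the file headers, the values of a peak are its tag count, a score (the p on a scale of minus 10 log10), a fold enrichment ratio and, where IgG was used, a false discovery rate in percent. In the SRF lists, per the file headers, they are a pileup signal, a fold ratio, and the p-value and q-value as −log10.

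Shared regions, shares of genes and exact (Clopper-Pearson) 95% intervals were computed with Python 3.11.15, pandas 2.3.3, numpy 2.4.6 and scipy 1.17.1, and figures drawn with matplotlib 3.10.9. Gene positions came from the RefSeq gene table of GRCm38.p6, which matched all 38 symbols and gives no strand or exons. The assignment of regions to genes was tested on simulated data. The members, their grouping by role and the other gene lists were chosen with earlier results of these data known. Every member with a shared wild type region was named, with full values for the 12 with the best mean fold rank at 60 min. Members with peaks of 1 antibody, knockout regions or none were named with their tags or as having none, and of each other list up to 5 genes by rank, of which 1 is not reported here. Alternatives varied the distance, overlap, peak threshold, antibodies, limit for a gene end and length range.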

Additional observations from a re-analysis of the deposited data

How the results depend on the processing

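At 12 and 60 min the share of adhesion genes with a shared region stayed above that of genes of similar length in all 11 alternatives at each time that redefined a region or its reach, from 13.2% to 28.9% at 12 min and from 21.1% to 47.4% at 60 min. Before heat shock it was 0% in each. The lower bound of its exact interval was 9.55% for 8 of 38 genes, which is below the share of genes of similar length within 25 kb at 12 min and with a p of 1e-10 or less at 60 min. The share of genes of similar length moved more than its counting interval in these cases, given in order of before, 12 and 60 min. With summits inside the gene only it was 0.455%, 5.56% and 13.1%, and within 25 kb 0.973%, 10% and 21.7%. Within 5 kb it was 6.86% at 12 min and 15.7% at 60 min. With an overlap of 50% of both peaks it was 0.570%, 7.28% and 14.4%. With a p of 1e-10 or less it was 0.153%, 3.76% and 9.87%, and with a false discovery rate of 5% or less 0.0%, 5.54% and 14.9%. By CS peaks alone it was 1.10%, 9.33% and 21.5%, by MM peaks alone 2.5%, 10.4% and 22.1%, and with each region given to its nearest gene 0.559%, 6.65% and 15.1%. The knockout share of adhesion genes was 0.0% at all 3 times with summits inside the gene only, and 0.0% before heat shock and at 12 min with a p of 1e-10 or less. Of 102 alternative values 71 stayed within their counting interval. That total does not measure how firm the shares are. Intervals for 38 genes are wide, and those for genes of similar length, taken over 18257 genes, are narrow.

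No paired analysis was possible because each genotype, antibody and time had 1 list. With 38 genes, 1 gene more or less moves a share by 2.63 percentage points. At 60 min 6 of 26 regions, among them both at gene ends and the region of Enah, did not have a false discovery rate of 5% or less for both peaks. The effect of depth on the SRF lists was not tested.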

Other observations

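Among the further adhesion genes, 4 of 14 matrix ligands of integrins had a shared region at 12 min (Col1a1, Col4a1, Lamc1 and Ccn1), and the same 4 had one at 60 min. Over all protein-coding genes 5.33% and 11.2% had a region at these times, and the difference was not tested. Genes of similar length were not taken for the ligands or the adaptors alone. For all 95 further adhesion genes they gave 7.18% and 15.8%. The Ccn1 region overlapped a knockout peak of the same time at both 12 and 60 min, and it stood at 92.3% of the 12 min list by fold rank. Fn1, Vtn and Thbs1, which encode fibronectin, vitronectin and thrombospondin 1, had no shared region. Of 34 further adaptors, 2 had a region at 12 min (Kank1 and Ptk2b) and 4 at 60 min (with Parvb and Crkl), which is close to the share over all protein-coding genes. The nearest protein-coding gene to the Crkl region was Aifm3.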
